A study of Mus musculus with 2 samples.

Results

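Activated CD8 T cells were described in single-cell RNA-seq of YUMMER1.7 tumors grown in 2 kinds of mice, controls and Dnmt1iECKO, and were chosen by their own UMI counts. Cells with at least 500 detected genes and at most 10% mitochondrial UMIs (unique molecular identifiers, each counting 1 captured RNA molecule) were kept. A member had at least 1 UMI of *Ptprc* (CD45), of *Cd3e*, *Cd3g* or *Trac*, and of *Cd8a* or *Cd8b1*. It had no UMI of *Cd4*, *Foxp3*, *Rag1* or *Dntt*, and at least 2 of the 5 genes *Pdcd1*, *Cxcr6*, *Nkg7*, *Lag3* and *Havcr2*. This rule gave 450 members among 16123 cells that passed the quality filters and 18823 deposited cells. Of these, 100 came from the control library and 350 from the Dnmt1iECKO library. CD8 T cells that met every condition except the last, with 0 or 1 of the 5 genes, numbered 84 and 334 and are called other CD8 T cells.

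YUMMER1.7 is a mouse melanoma line that carries many mutations and is rejected by the immune system in some settings. Each library held the pooled tumors of 3 female mice aged 8 to 10 weeks. The Dnmt1iECKO genotype is given as Cdh5CreERT2;Dnmt1fl/fl;ZsGreenlsl/lsl, in which Cre is driven by the endothelial promoter of *Cdh5* and is active after tamoxifen, so *Dnmt1* was targeted in endothelial cells (ECs) and not in T cells. The label of the control is C57BL/6, while the methods of the study describe controls with the Cre and reporter alleles. The labels give subcutaneous tumors and the methods give lung tumors after injection into the tail vein. Live CD31+ CD45- cells were sorted before the libraries were made, so every T cell described here passed a gate meant to exclude it. With 1 library per condition there is no replicate, and a difference between the libraries cannot be told apart from a difference between pools, sorts or captures. Therefore no difference has a test, and all intervals are 95% intervals that cover counting error only.

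CD8 T cells recognise peptides on MHC class I and kill the cells that present them, mainly by releasing perforin and granzymes. When antigen persists, as in tumors, they keep up inhibitory receptors such as PD-1 (*Pdcd1*), LAG-3 and TIM-3 (*Havcr2*), express the transcription factor TOX, and lose part of their function, a state called exhaustion. A less differentiated fraction that expresses TCF-1 (*Tcf7*) can renew itself and gives rise to the more differentiated cells. T cells leave the blood through contacts with endothelium, among them the binding of the integrin α4β1 (*Itga4*, *Itgb1*) to VCAM1.

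Summed over the members, 1670650 UMIs were counted for the control and 5466732 for Dnmt1iECKO. A control member had a median of 11599 UMIs, with a range from 3073 to 71149, and a Dnmt1iECKO member had a median of 10966.5, with a range from 1562 to 132661. Both *Cd8a* and *Cd8b1* were detected in 92% of control and 87.4% of Dnmt1iECKO members. *Trdc*, the constant segment of the γδ T cell receptor, was seen in 0 and 4 members. At least 3 UMIs of a list of γδ and innate-like T cell markers, which shares genes with CD8 T cells, were found in 18% of members of each library. Innate-like T cells were therefore not told apart from other members. *Ncr1*, a defining gene of NK cells, was at 0 UMIs in the members of both libraries. *Klrb1c*, another NK cell marker, was at 2 UMIs in control and 39 UMIs in Dnmt1iECKO members. No barcode was shared between members of the libraries, although 29 barcodes occurred in both libraries and 2 members carried such a barcode. In 6 of 350 Dnmt1iECKO members and 0 of 100 control members, which allows a share of up to 3%, a UMI of 1 of 4 Y-linked genes was found, although the labels give female mice.

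RNA of other cell types was present in some members, and its amount differed between the libraries. The 10 endothelial marker genes summed to 715 CPM (UMIs scaled to a total of 1000000) in control members and to 387 CPM in Dnmt1iECKO members, against 9392 and 8328 CPM in tumor ECs (TECs). At least 3 UMIs of these genes were found in 17% of control and 5.71% of Dnmt1iECKO members. In all, 10 of 10 endothelial genes were lower in Dnmt1iECKO members. Macrophage genes were higher in 9 of 10 and summed to 1468 and 1870 CPM, and without *Lyz2*, 8.00% and 7.14% of members had at least 3 UMIs of them. Neutrophil genes were higher in 5 of 5 and summed to 2.99 and 247 CPM, with *S100a9* at 0 UMIs in control members. B cell genes were lower in 4 of 5 (241 and 98.8 CPM), alveolar epithelial genes in 2 of 2 (86.8 and 26.3 CPM) and fibroblast and mural genes in 4 of 7 (708 and 247 CPM), of which *Col1a1* had all 363 of its control UMIs in 1 cell. By members with at least 3 UMIs, B cell RNA (7% and 11.7%) and fibroblast and mural RNA (2% and 3.14%) went the other way. Alveolar epithelial RNA did not (9% and 1.71%). Platelet genes summed to 4.79 and 26.5 CPM, melanoma genes to 26.9 and 19.4 CPM and erythrocyte genes to 1.20 and 1.10 CPM. Genes of dendritic cells, led by *Cd74* and *H2-Aa*, were higher in 3 of 4 and summed to 3191 and 3976 CPM. The lists for NK cells (541 and 772 CPM), γδ and innate-like T cells (73.0 and 91.3 CPM), CD4 and regulatory T cells (1213 and 1211 CPM) and thymocytes (1402 and 1462 CPM) share genes with CD8 T cells. *Sftpc*, a surfactant gene of alveolar type II cells, was found in 9.64% of control and 3.73% of Dnmt1iECKO TECs after thinning to 2000 UMIs, and in 11% and 3.16% of members. How far these differences enter the results below was not tested beyond the values given beside them. Doublets were marked by Scrublet at 8.00% and 8.29% of members. All ratios below were therefore also computed over 74 control and 269 Dnmt1iECKO members, here called members with little foreign RNA, a setting chosen after seeing the data. These had fewer than 3 UMIs of each of 7 lists: endothelium, macrophage and monocyte (without *Lyz2*), B cell, neutrophil, platelet, alveolar epithelium, and fibroblast and mural. Members with RNA of the NK cell, dendritic cell or T cell lists were not left out.

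Activated CD8 T cells were a larger share of all cells in the Dnmt1iECKO library, while their share among immune cells was nearly the same in both. They made up 1.25% of the quality-filtered control cells (1.02 to 1.51%, Clopper-Pearson interval) and 4.32% of the Dnmt1iECKO cells (3.89 to 4.79%), a log2 ratio of 1.79 (1.47 to 2.13). Cells with *Ptprc* showed a similar ratio, at 18.3% and 58.4% of the cells (log2 ratio 1.68). Within cells with *Ptprc*, members were 6.82% of control and 7.4% of Dnmt1iECKO cells (log2 ratio 0.12, −0.21 to 0.45). The sort against CD45 can set the first of these shares, and its part in the difference was not tested.

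The further denominators showed where the libraries differed. Members were 22.3% of control and 18.4% of Dnmt1iECKO T cells. Of T cells with *Cd8a* or *Cd8b1*, they were 50.3% (43.1 to 57.4%) and 35.5% (32.5 to 38.6%), intervals that did not overlap. Requiring no UMI of *Cd4*, *Foxp3*, *Rag1* or *Dntt* left 184 of 199 such control cells and 684 of 986 such Dnmt1iECKO cells. Among the CD8 T cells left, 54.3% of control (46.9 to 61.7%) and 51.2% of Dnmt1iECKO cells (47.4 to 55.0%) were activated, a log2 ratio of −0.087 (−0.41 to 0.25). When each cell was thinned to 2000 UMIs before the rule was applied, these shares were 46.9% and 38.5%, with a log2 ratio of −0.29 (−0.71 to 0.16).

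**Figure D1:**
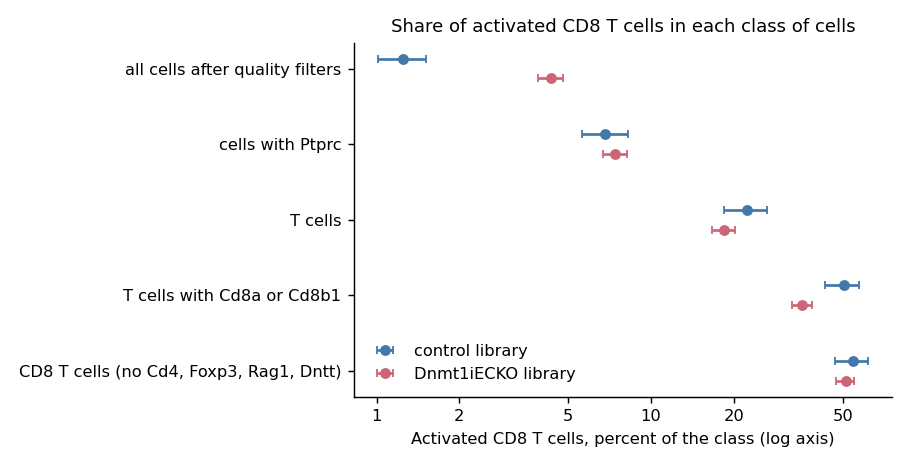
Share of activated CD8 T cells, in percent on a log axis, in 5 nested classes of cells of the control (blue) and Dnmt1iECKO (red) libraries. Points are 1 library each and bars are exact 95% binomial intervals; the libraries differ at 1.25% and 4.32% of all cells and lie close together at 54.3% and 51.2% of CD8 T cells.

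The members spanned a range from cells with 2 of the 5 genes to cells with all 5, and other T cell genes were graded along it. In the control library 29, 30, 26 and 15 members had 2, 3, 4 and 5 of the genes, and in the Dnmt1iECKO library 112, 77, 82 and 79 did. The median depth was 12506, 10009.5, 11059.5 and 24514 UMIs in these control classes and 10079, 10521, 10246 and 13509 UMIs in the Dnmt1iECKO classes, so the detection of genes is given after thinning to 2000 UMIs. These gradients were measured in the cells the rule sorted and are a description of it.

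Genes of naive and progenitor T cells were detected in fewer cells toward the upper end. *Tcf7* was detected in 48.3% of control members with 2 of the genes and in 0 of 15 with all 5, which allows a share of up to 20%. In Dnmt1iECKO members it was detected in 33.3% and 3.80%. *Lef1*, a transcription factor related to TCF-1, went from 44.8% to 13.3% in control and from 53.2% to 11.4% in Dnmt1iECKO members. *Ccr7*, the lymph node homing receptor, went from 37.9% to 13.3% and from 38.7% to 11.4%. The cells just outside the rule, with 1 of the genes, had *Ccr7* in 63.2% and 69.5% and *Lef1* in 79.4% and 77.3% of cells. Both genes were thus detected in fewer cells just inside than just outside the threshold.

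Genes of activation and exhaustion were detected more often toward the upper end. *Ctla4*, an inhibitory receptor, was detected in 44.8% of control members with 2 of the genes and in 80.0% with all 5, and in 27.0% and 77.2% of the Dnmt1iECKO members. *Tnfrsf9* (4-1BB), a costimulatory receptor induced by antigen, went from 3.45% to 53.3% and from 7.21% to 50.6%. *Tox* went from 37.9% to 53.3% in control and from 36.0% to 65.8% in Dnmt1iECKO members. *Gzmb* reached 26.7% and 27.8% of members with all 5 genes, and *Ifng* reached 26.7% and 26.6%. For *Ctla4*, *Tnfrsf9*, *Gzmb* and *Ifng*, the shares in members with all 5 genes lay close together in the libraries, each within the interval of the other.

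Members with and without *Tcf7* after thinning were set side by side, as a description, since *Havcr2* belongs to the rule and the other genes follow it. Of members with *Tcf7*, 0 of 25 in the control library, which allows a share of up to 12%, and 3 of 81 in the Dnmt1iECKO library had a UMI of *Havcr2*. Without *Tcf7*, 13.3% and 15.0% had one. *Ccr7* was detected in 44.0% and 53.1% of members with *Tcf7*, against 8.00% and 13.5% of those without, and *Gzmb* was detected in 4% and 4.94% against 17.3% and 25.1%. *Tox* did not follow this split, at 48% and 48.1% of members with *Tcf7* and 42.7% and 55.4% of those without. In both libraries *Ccr7* was thus more frequent and *Gzmb* less frequent in the members with *Tcf7*.

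**Figure D2:**
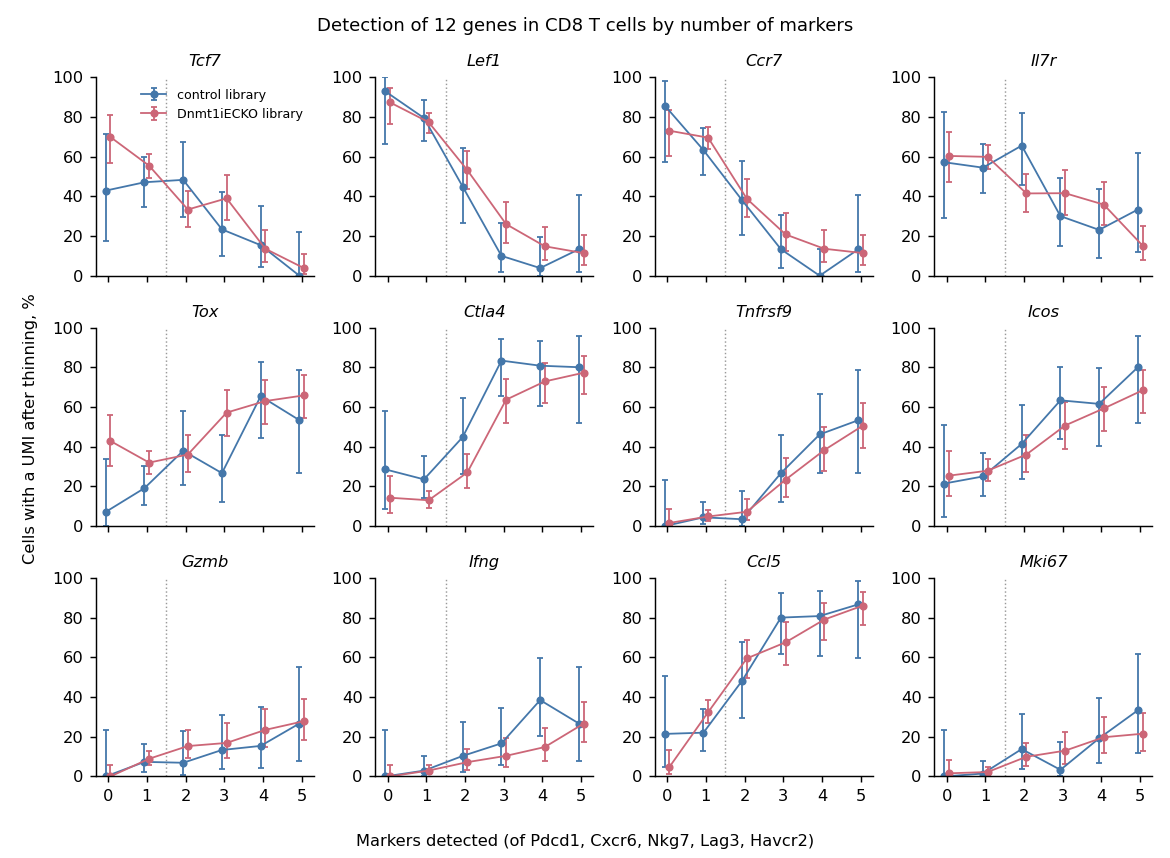
Percent of CD8 T cells with a UMI of 12 genes after thinning to 2000 UMIs, by the number of the 5 rule genes detected at full depth, in the control (blue) and Dnmt1iECKO (red) libraries. Bars are exact 95% binomial intervals and the dotted line marks the threshold of the rule; *Tcf7*, *Lef1* and *Ccr7* are lower and *Ctla4*, *Tnfrsf9* and *Ccl5* higher toward 5 genes in both libraries.

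Activated CD8 T cells were often in cycle. With at least 3 of 40 cell cycle genes detected after thinning, 22% of control (14.3 to 31.4%) and 19.8% of Dnmt1iECKO members (15.8 to 24.4%) were counted as cycling, a log2 ratio of −0.15 (−0.86 to 0.61). Other CD8 T cells had 3.66% and 4.82%, regulatory T cells 20.8% and 23.9%, and TECs 4.05% and 4.83%. Of the members with all 5 rule genes, 46.7% in the control and 35.4% in the Dnmt1iECKO library were cycling. Without thinning, 79.0% and 78.9% of members reached 3 cycle genes.

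Next, the members of the libraries were compared gene by gene, with UMIs summed over the members of a library, scaled to CPM and given as the log2 ratio of Dnmt1iECKO over control. A total of 9595 genes reached 50 UMIs over all members. Of these, 279 were at least 2-fold higher (2.91%) and 227 at least 2-fold lower (2.37%) in Dnmt1iECKO members, or 5.27% in either direction. Over all genes, 44.8% were higher and 55.2% lower by any amount, 9.6% had an interval above 0 and 13% had an interval below 0, and the median log2 ratio was −0.037. These shares are the background for the counts of each list below. The UMIs of some genes lay largely in single cells, so an interval that assumes independent UMIs is then too narrow. The share in the leading cell is given for some of these genes and not for all.

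The 5 rule genes, on which the members were selected, are given as a description. *Pdcd1* was at 472 CPM in control and 488 CPM in Dnmt1iECKO members, *Nkg7*, which is needed for the release of cytotoxic granules, at 1243 and 1366 CPM, and *Cxcr6*, a chemokine receptor of tissue T cells, at 376 and 335 CPM. *Lag3* was at 125 and 132 CPM and *Havcr2* at 96.4 and 104 CPM. The log2 ratios lay between −0.17 and 0.14, and that of *Havcr2*, at 0.11 (−0.15 to 0.37), was 0.89 over members with little foreign RNA.

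Of 16 genes of the T cell receptor complex and its signalling, 10 were higher and 6 lower, with a median log2 ratio of 0.048 against −0.037 over all genes. *Trac* had the lowest ratio, at 652 CPM in control and 529 CPM in Dnmt1iECKO members (−0.30, −0.40 to −0.20). *Trbc1* had the highest (0.41, 0.29 to 0.53) and *Trbc2* the highest level, at 1348 and 1282 CPM. *Cd8a* was at 463 and 422 CPM (−0.14, −0.25 to −0.016) and *Cd8b1* at 675 and 724 CPM (0.10, 0.0042 to 0.20), and both were part of the rule.

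The exhaustion genes as a list did not move to either side, and single genes in it differed in both directions. Of 24 genes, 13 were higher and 11 lower in Dnmt1iECKO members, with a median log2 ratio of 0.029, against −0.037 over all genes, and 1 was past 2-fold in each direction. *Tox*, the transcription factor that sustains the exhausted state, was at 299 CPM in control and 502 CPM in Dnmt1iECKO members (log2 ratio 0.75, 0.61 to 0.89). *Ikzf2* (Helios) was at 245 and 434 CPM (0.82, 0.67 to 0.98), and *Entpd1* (CD39), an ectonucleotidase of exhausted T cells, at 64.0 and 97.9 CPM (0.61, 0.31 to 0.92). These genes were also detected in more thinned cells of the Dnmt1iECKO library, with *Ikzf2* in 24% of control and 38.2% of Dnmt1iECKO members.

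Among the other receptors of the list, *Ctla4* and *Btla* were lower and *Cd244a* was higher. *Ctla4* was at 824 CPM in control and 640 CPM in Dnmt1iECKO members (−0.36, −0.45 to −0.27), and it was detected in 71% and 57.2% of thinned members. *Btla*, a receptor for HVEM, was at 28.7 and 10.8 CPM (−1.41, −1.99 to −0.83), which is the lowest ratio of the list. *Cd244a* (2B4) had the highest ratio at 1.16 (0.38 to 2.05), but rested on 15 UMIs in the control library. *Tigit* was at 55.1 and 56.5 CPM (0.038, −0.30 to 0.39). Over members with little foreign RNA the log2 ratios of *Tox*, *Ikzf2*, *Ctla4* and *Btla* were 0.68, 0.93, −0.51 and −1.23. That of *Entpd1* was 0.49 (0.026 to 0.97) there. It was 0.37 (−0.079 to 0.84), an interval that held 0, with the rule applied after thinning. *Tox*, *Entpd1* and *Tigit* were named after their values were seen.

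*Gzma*, *Gzmb*, *Prf1* and *Ccl5* were higher in Dnmt1iECKO members, and the cytokine genes *Ifng* and *Tnf* were lower. Of 21 genes in the list of effectors and cytokines, 17 were higher, 12 with an interval above 0, and 4 were lower, 3 with an interval below 0. The shares over all genes were 44.8% higher, 9.6% with an interval above 0, 55.2% lower and 13% with an interval below 0. The median log2 ratio was 0.36. *Gzma*, granzyme A, was at 69.4 CPM in control and 321 CPM in Dnmt1iECKO members, the highest ratio of the list among genes with control UMIs (2.21, 1.94 to 2.49). A single cell held 35.3% of the control and 18.4% of the Dnmt1iECKO UMIs of *Gzma*, and without these cells the log2 ratio was 2.53. It was detected in 6.00% of control and 15.2% of Dnmt1iECKO members after thinning, against 0.0438% and 0.158% of TECs, which do not express it and had median depths of 9659.5 and 9771 UMIs. In other CD8 T cells the log2 ratio of *Gzma* was −0.075 and in NK cells 0.27, a difference between cell types that was not tested.

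*Gzmb*, granzyme B, was at 114 CPM in control and 216 CPM in Dnmt1iECKO members (0.92, 0.69 to 1.14). *Prf1*, perforin, was at 67.0 and 120 CPM (0.84, 0.55 to 1.14). *Gzmk*, granzyme K, was at 47.3 and 68.6 CPM (0.54, 0.18 to 0.91). All of these were higher in the Dnmt1iECKO members, and over members with little foreign RNA the log2 ratios of *Gzmb*, *Prf1*, *Gzmk* and *Gzma* were 1.09, 0.95, 0.43 and 2.61. That setting kept members with NK cell RNA. At least 3 UMIs of NK cell markers were found in 47% of control and 67.1% of Dnmt1iECKO members. The part of NK cell RNA in the granzyme and perforin values was not tested. Without cycling members the log2 ratio of *Gzmb* was 1.89. Among other genes of cytotoxic granules, *Gzmm*, granzyme M, was also higher, from 8 control and 45 Dnmt1iECKO UMIs. Others, given next, differed less or not in this direction. *Ctsw*, cathepsin W, was at 320 and 345 CPM (0.11, −0.028 to 0.25), *Gzmc* was at 3 and 6 UMIs (−0.71, −2.94 to 1.92) and *Gzmf* at 6 and 0 UMIs. *Gzmb*, *Prf1*, *Gzmk*, *Gzmm*, *Ctsw*, *Gzmc* and *Gzmf* were named after their values were seen.

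Among the chemokines, *Ccl5*, which attracts T cells and myeloid cells, had the highest level of the list at 2564 CPM in control and 3633 CPM in Dnmt1iECKO members (0.50, 0.46 to 0.55). *Xcl1*, which attracts cross-presenting dendritic cells, was at 154 and 321 CPM (1.06, 0.87 to 1.25), with 24.8% and 25.6% of its UMIs in a single cell of each library, and a log2 ratio of 1.83 over members with little foreign RNA. *Ccl4* was level at 368 and 374 CPM, with 55.9% of the control UMIs in 1 cell, and its log2 ratio was 1.01 without the leading cell of each library. *Csf2* (GM-CSF) was at 0 UMIs in control members, which allows up to 1.80 CPM, and at 61 UMIs in Dnmt1iECKO members, of which 55.7% lay in 1 cell.

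*Ifng*, the cytokine that induces MHC and chemokine genes in neighbouring cells, was at 135 CPM in control and 99.0 CPM in Dnmt1iECKO members (−0.45, −0.68 to −0.22). It was detected in 22% of control and 14.1% of Dnmt1iECKO members after thinning. *Tnf* was at 46.1 and 27.6 CPM (−0.74, −1.14 to −0.32), the lowest ratio of the list, with 35.1% of the control UMIs in 1 cell. Without the leading cell of each library the log2 ratio of *Ifng* was −0.40 (−0.64 to −0.15). That of *Tnf* was −0.41 (−0.89 to 0.096), an interval that held 0, and it was −0.18 without the deepest 5% of members. Over members with little foreign RNA the log2 ratios of *Ifng* and *Tnf* were −0.64 and −1.25. *Ifng*, *Xcl1* and *Ccl4* were named after their values were seen.

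**Figure D3:**
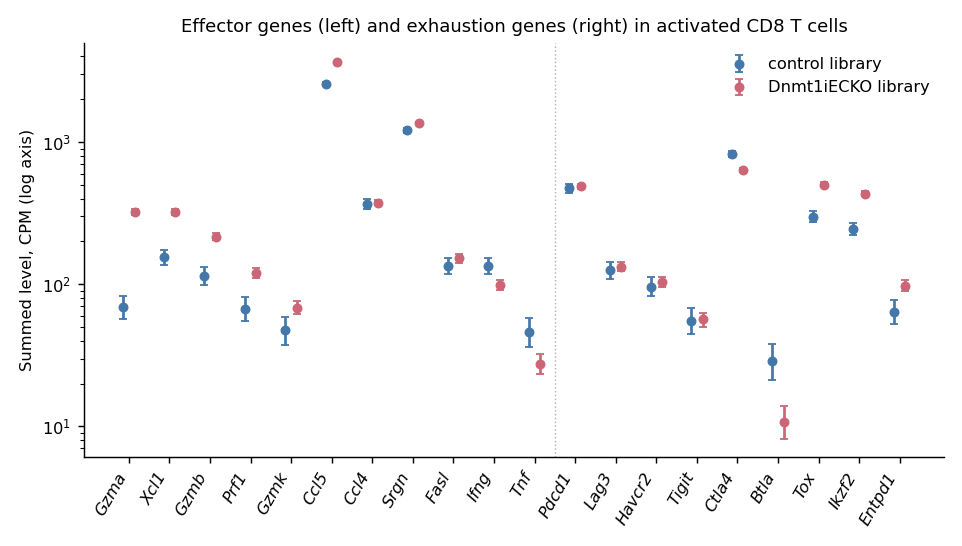
Summed levels in CPM, on a log axis, of 11 effector genes and 9 exhaustion genes in activated CD8 T cells of the control (blue) and Dnmt1iECKO (red) libraries. Points are 1 library each and bars are exact 95% Poisson intervals; *Gzma* is at 69.4 and 321 CPM, *Ifng* at 135 and 99.0 CPM and *Pdcd1* at 472 and 488 CPM.

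The killer lectin-like receptors, which NK cells and cytotoxic T cells share, were higher in Dnmt1iECKO members in 5 of 5 measured genes. In 3 of them the interval lay above 0, and the median log2 ratio was 0.37. Among all genes, 44.8% were higher and 9.6% had an interval above 0. The list of NK cell markers, which shares *Klre1* and *Klrb1c* with it, was higher in 6 of 6 measured genes, 5 with an interval above 0, with a median of 0.79, and at least 3 UMIs of it were found in 47% of control and 67.1% of Dnmt1iECKO members. Members with such UMIs were not left out in the setting with little foreign RNA, and the part of NK cell RNA in these values was not tested. *Ncr1* was at 0 UMIs in both libraries and *Klrb1c* at 2 and 39 UMIs, as given above. *Klrb1c* was named after its values were seen. *Klrd1* (CD94) had the highest level, at 333 CPM in control and 444 CPM in Dnmt1iECKO members (0.41, 0.28 to 0.55). *Klre1* had the highest ratio, at 101 and 153 CPM (0.59, 0.35 to 0.84), and was detected in 14.0% of control and 30.2% of Dnmt1iECKO members after thinning. *Klrc2* had the lowest ratio at 0.12 (−0.12 to 0.37). Some members of this family have near-identical copies, so reads of those can be split among them and their single values are uncertain.

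Of 17 receptors for cytokines, 11 were higher, 7 with an interval above 0, and 6 were lower, 2 with an interval below 0. The median log2 ratio was 0.11. Among all genes, 44.8% were higher, 9.6% had an interval above 0 and 13% had an interval below 0. *Il18rap*, a chain of the receptor for IL-18, had the highest ratio, at 74.8 CPM in control and 131 CPM in Dnmt1iECKO members (0.81, 0.54 to 1.10), and the other chain, *Il18r1*, was at 278 and 360 CPM (0.37, 0.23 to 0.52). *Tgfbr1*, a TGF-β receptor, had the lowest ratio at −0.54 (−0.86 to −0.21), and *Ifngr1* the highest level, at 817 and 784 CPM. Without the leading cell of each library the log2 ratio of *Tgfbr1* was −0.31 (−0.67 to 0.056), an interval that held 0. *Il18r1* was named after its values were seen.

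Of 21 genes of naive, memory and progenitor T cells, 15 were higher and 6 lower in Dnmt1iECKO members, with a median log2 ratio of 0.11. By comparison, 44.8% of all genes were higher and 55.2% lower. *Tcf7* was at 156 CPM in control and 175 CPM in Dnmt1iECKO members (0.17, −0.028 to 0.37), and its detection after thinning was 25.0% and 23.3%. *Slamf6* (Ly108), a surface marker of progenitor exhausted cells, was at 65.8 and 113 CPM (0.78, 0.49 to 1.09), and *Ccr7* at 186 and 257 CPM (0.47, 0.29 to 0.65). *Dapl1* had the highest ratio (2.03, 1.34 to 2.81), from 18 control UMIs. *Cxcr5* had the lowest (−1.11, −1.87 to −0.32), from 25, and *Foxp1* the highest level, at 512 and 443 CPM. *Tcf7*, *Slamf6* and *Ccr7* were named after their values were seen.

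Of 16 tissue residency genes, 6 were higher, 4 with an interval above 0, and 10 lower, 7 with an interval below 0. For all genes, the shares were 44.8% higher, 9.6% with an interval above 0, 55.2% lower and 13% with an interval below 0. The median log2 ratio was −0.058, with 2 genes past 2-fold higher and 0 past 2-fold lower. *Cd244a*, given above, had the highest ratio. *Itgae* (CD103), the integrin that binds E-cadherin on epithelium, was at 107 CPM in control and 62.9 CPM in Dnmt1iECKO members (−0.76, −1.02 to −0.49), the lowest ratio of the list. It was detected in 22% and 11.8% of members after thinning, and its log2 ratio in other CD8 T cells was 0.38. *Rgs2* had the highest level at 618 and 615 CPM. Of the costimulatory receptors, 9 of 12 were higher, with a median log2 ratio of 0.056. *Crtam* had the highest ratio, at 39.5 and 79.9 CPM (1.02, 0.64 to 1.41), *Icos* the highest level, at 497 and 440 CPM (−0.18, −0.29 to −0.060), and *Tnfrsf4* (OX40) the lowest ratio, at −0.39 (−0.65 to −0.12), which was 0.064 over members with little foreign RNA.

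Receptors for adhesion and homing were compared because T cells enter tumors through endothelium. Of 18 genes, 13 were higher in Dnmt1iECKO members, 9 with an interval above 0, and 5 were lower, 0 with an interval below 0. The median log2 ratio was 0.19. Among all genes, 44.8% were higher, 9.6% had an interval above 0 and 13% had an interval below 0. *Itga4*, the α4 chain of the VCAM1 receptor, was at 405 CPM in control and 559 CPM in Dnmt1iECKO members (0.47, 0.35 to 0.59) and was detected in 45% and 58.6% of thinned members. Its log2 ratio was 0.49 over members with little foreign RNA and −0.036 in other CD8 T cells. *Itgb1*, its β1 partner, had the highest level, at 795 and 893 CPM (0.17, 0.080 to 0.26). *Cxcr3*, the receptor for CXCL9 and CXCL10, was at 67.6 and 58.0 CPM (−0.22, −0.54 to 0.10). Its log2 ratio was −0.46 (−0.83 to −0.078) over members with little foreign RNA and −0.42 (−0.81 to −0.020) with the rule applied after thinning. *Ccr2* had the highest ratio (0.57, 0.19 to 0.97) and *Ccr8*, from 16 control UMIs, the lowest (−0.25, −1.10 to 0.67). The ratio of *Ccr2* did not hold over members with little foreign RNA (0.25, −0.19 to 0.72), nor with the rule applied after thinning (−0.12, −0.64 to 0.42). Of 6 receptors for ligands of ECs, some of which are also in the homing list, 3 were higher and 3 lower, with a median of −0.064. *Cxcr3* was named after its values were seen.

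More interferon response genes were higher than lower in Dnmt1iECKO members, with small median ratios. Of 35 genes of the type I response, 22 were higher and 13 lower, with a median log2 ratio of 0.097. *Ifi27l2a*, the most abundant of them, was at 445 CPM in control and 582 CPM in Dnmt1iECKO members (0.38, 0.27 to 0.50). *Oas3* had the highest ratio (1.52, 0.47 to 2.78), from 8 control UMIs, and *Oasl2* the lowest (−1.10, −1.56 to −0.63). The log2 ratio of *Oasl2* was −0.071 over members with little foreign RNA, from 2 and 7 UMIs. Without the leading cell of each library it was −0.43 (−1.01 to 0.18), an interval that held 0. Of 39 genes of the IFNγ response, 31 were higher, 14 with an interval above 0, and 8 lower, 3 with an interval below 0. The median was 0.12. Over all genes, 44.8% were higher and 9.6% had an interval above 0. *B2m*, the light chain of MHC class I, was at 3636 and 3783 CPM (0.057, 0.016 to 0.099), and *Irf8* had the highest ratio (0.97, 0.65 to 1.30). *Iigp1*, an interferon-inducible GTPase, was at 265 and 115 CPM (−1.21, −1.38 to −1.03), with 47.3% of the control UMIs in 1 cell, and its log2 ratio was 1.29 (0.076 to 2.80) over members with little foreign RNA, from 6 and 54 UMIs.

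Cell cycle genes were lower in Dnmt1iECKO members when all were summed. Of 19 S phase genes, 18 were lower, 6 with an interval below 0, with a median log2 ratio of −0.35. Of 20 G2 and M phase genes, 14 were lower, 8 with an interval below 0, with a median of −0.40. By comparison, 55.2% of all genes were lower and 13% had an interval below 0. *Pcna*, the DNA polymerase clamp, was at 184 CPM in control and 144 CPM in Dnmt1iECKO members (−0.35, −0.54 to −0.15). *Mki67* was at 324 and 240 CPM (−0.43, −0.58 to −0.29). *Nusap1* had the lowest ratio of the G2 and M phase genes, at −1.0, and −0.27 over members with little foreign RNA. The highest ratios of the S phase and of the G2 and M phase lists were those of *Mcm2* and *Kif20a*, at 0.045 and 0.81, the latter from 11 control UMIs. This did not hold over members with little foreign RNA, where the medians of the S phase and of the G2 and M phase lists were 0.032 and 0.082, nor when the rule was applied after thinning, where they were −0.00268 and 0.10. The share of cycling cells given above also did not differ beyond counting error.

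*Dnmt1*, which copies DNA methylation to the new strand and is expressed most in dividing cells, was not targeted in T cells. It lies on chromosome 9 from 20907209 to 20959888 in GRCm38. It was at 106 CPM in control and 80.5 CPM in Dnmt1iECKO members, with 177 and 440 UMIs (−0.40, −0.65 to −0.14), and at a log2 ratio of −0.88 in TECs. The log2 ratio in members was 0.12 (−0.32 to 0.59) without cycling cells and −0.093 over members with little foreign RNA, so the lower value in all members did not hold in either. After thinning, *Dnmt1* was detected in 9% of control and 14.1% of Dnmt1iECKO members, opposite in direction to the summed level. Of 7 genes of the DNA methylation machinery, 6 were lower, against 55.2% of all genes, with a median of −0.14. *Uhrf1* was lowest at −0.43 (−0.91 to 0.062), *Tet2* highest at 0.30 (0.018 to 0.59) and *Mbd2* most abundant at 293 and 266 CPM.

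Genes induced by tissue dissociation and immediate early genes were lower in 15 of 23, 12 with an interval below 0. The other 8 were higher, 4 with an interval above 0, and the median was −0.18. For all genes, the shares were 55.2% lower, 13% with an interval below 0, 44.8% higher and 9.6% with an interval above 0. *Hspa1b*, a heat shock protein, had the lowest ratio, at 73.0 CPM in control and 30.2 CPM in Dnmt1iECKO members (−1.27, −1.62 to −0.93), *Junb*, an AP-1 factor, the highest level, at 1410 and 1135 CPM, and *Myc* the highest ratio, at 0.72 (0.025 to 1.49). Over members with little foreign RNA the log2 ratios of *Hspa1b* and *Myc* were −2.01 and 1.64, the latter from 4 control UMIs. AP-1 factors also respond to T cell receptor signals, and the part of dissociation in these values was not tested. Glycolysis genes were level, with 7 of 17 higher, 10 lower, 0 with an interval on either side of 0 and a median of −0.023, with *Gapdh* at 1150 and 1100 CPM, *Pfkp* highest at 0.20 and *Hk2* lowest at −0.30.

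**Figure D4:**
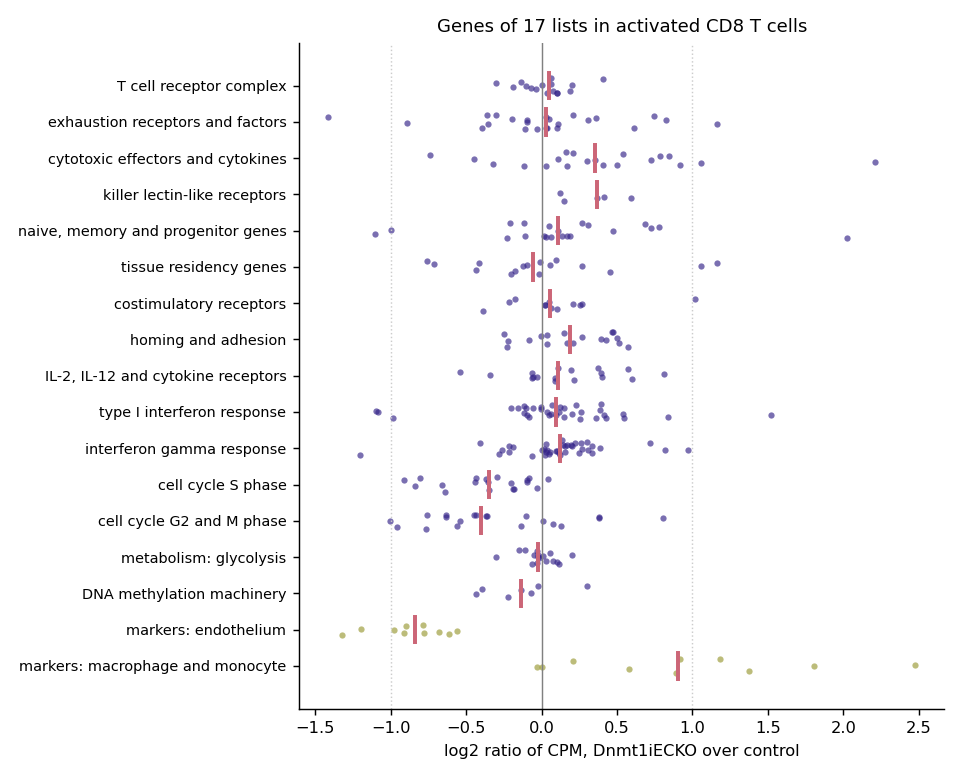
Log2 ratio of CPM in Dnmt1iECKO over control activated CD8 T cells for each gene with at least 50 UMIs in 17 lists, with list medians as red bars and 2-fold limits as dotted lines. Cytotoxic genes have a median of 0.36, S phase genes of −0.35 and endothelial marker genes (olive), which belong to other cells, of −0.84; *Csf2*, at 0 in control, has no point.

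Outside the lists, the largest ratios belonged to a few genes seen in many cells and to genes of other cell types. *Gdpd3*, a lysophospholipase D gene on chromosome 7 from 126766334 to 126775649 in GRCm38, was at 2.39 CPM in control and 149 CPM in Dnmt1iECKO members, from 4 and 816 UMIs (5.96, 4.60 to 7.84). It was detected in 4% and 54.6% of members without thinning. Its log2 ratio was 6.29 in other CD8 T cells, 5.39 in NK cells and 4.48 in TECs, so the difference was seen in immune cells and in TECs alike. *Acpp*, which encodes an acid phosphatase, was at 10.2 and 49.0 CPM (2.27, 1.56 to 3.07), in 6.00% and 36.3% of members. *Utf1* was at 2 and 113 UMIs (4.11, 2.22 to 7.17), in 2.00% and 14.3% of members.

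In the other direction, *Arhgap31*, a GTPase-activating protein for Rac and Cdc42, was at 251 CPM in control and 44.6 CPM in Dnmt1iECKO members (−2.49, −2.72 to −2.26). It was detected in 72.0% of control and 18.3% of Dnmt1iECKO members without thinning, and in 32.0% and 6.03% after it. It lies on chromosome 16 from 38598340 to 38713274 in GRCm38. The log2 ratio was −3.64 in other CD8 T cells and −2.74 in regulatory T cells, but −0.15 in NK cells and 0.13 in TECs, where its level was 522 and 570 CPM. Over members with little foreign RNA it was −4.06. The difference was thus present in the 3 T cell classes, and the contrast with the other classes was not tested. *Rpl29*, a ribosomal protein gene, was at 1319 and 302 CPM (−2.13, −2.22 to −2.03), in 99.0% and 84.6% of members, and between −3.05 and −2.20 in other CD8 T cells, regulatory T cells, NK cells and TECs. Ribosomal protein genes have many pseudogene copies, so reads of *Rpl29* can be split among them.

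The other genes with the highest ratios were *Wfdc17* (2.68), *Igha* (2.32), *Gm42047* (2.22), *Gzma*, *Dapl1*, *Fabp5* (1.87) and *P2ry14* (1.78). *Wfdc17* is a gene of myeloid cells and *Igha* encodes the constant part of IgA, and 53.4% of the Dnmt1iECKO UMIs of *Igha* lay in 1 cell. *Fabp5*, a fatty acid binding protein, had a log2 ratio of −0.53 (−1.03 to 0.0057) over members with little foreign RNA. The other genes with the lowest ratios were *Sparc* (−2.87), *Tango6* (−1.97), *Lpl* (−1.95), *Ldb2* (−1.94), *Plvap* (−1.92), *Cyb561a3* (−1.79), *Tmem100* (−1.70) and *Rapgef5* (−1.70). *Plvap*, which forms the diaphragms of EC fenestrae, was at 653 CPM in control TECs, and *Ldb2* and *Tmem100* were at 1074 and 1447 CPM there. In the control library 69.1% of the UMIs of *Sparc* and 74.1% of those of *Tango6* lay in 1 member. Over members with little foreign RNA few UMIs of these genes were left. *Plvap*, *Ldb2* and *Lpl* had 1 control UMI each, *Sparc* and *Tmem100* had 3 and *Rapgef5* had 5, with intervals that held 0 for each of them, so no direction can be read there. *Wfdc17* had 1 and 10 UMIs, and *Tango6* a log2 ratio of −0.10 (−0.82 to 0.67). *Igha* had 0.89 (0.012 to 1.90), and *Gdpd3*, with 1 and 552 UMIs, had 7.23 (4.75 to 12.5).

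**Figure D5:**
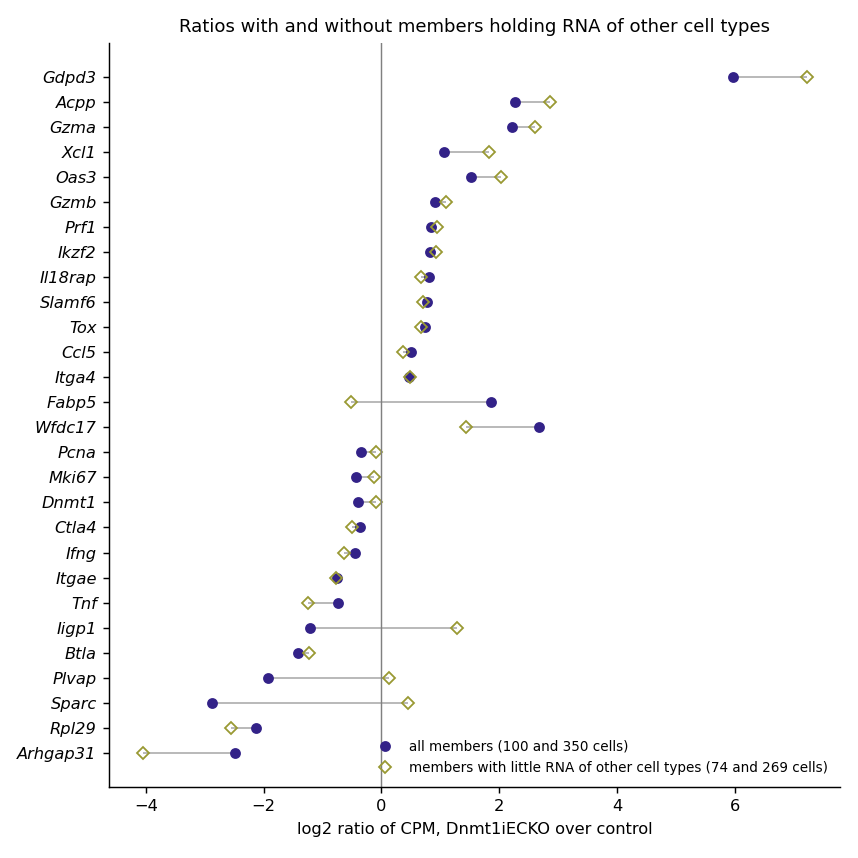
Log2 ratio of CPM, Dnmt1iECKO over control, of 28 genes over all activated CD8 T cells (filled points) and over members with fewer than 3 UMIs of each of 7 marker lists of other cell types (open diamonds). *Tox*, *Itga4* and *Itgae* stay nearly in place, while the diamonds of *Sparc* and *Plvap* rest on 3 and 1 control UMIs and have intervals that hold 0.

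The usage of T cell receptor segments was read from the genes that the 3′ libraries happened to cover. A Trav or Trbv segment was detected in 66.0% of control (55.8 to 75.2%) and 58.0% of Dnmt1iECKO members (52.6 to 63.2%). *Trbv31* was detected in 14 of 100 control and 16 of 350 Dnmt1iECKO members, or 14.0% and 4.57%, and *Trbv19* in 11.0% and 7.71%. *Trav13-1* was detected in 7 and 2 members, whereas *Trbv20* was detected in 0 of 100, which allows a share of up to 3%, and 17 of 350. More UMIs of *Trbc1* than of *Trbc2* were found in 14.0% and 19.7% of members, and these constant segments are near-identical, so their reads can be split. No segment was detected in a majority of members, and clones cannot be told apart with these data. These segments were named after their values were seen.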

How the data were processed

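The deposited values are UMI counts per gene and cell that were not normalized. Per the submitters' notes and the file headers, the authors used Cell Ranger 9.0.1 and the mm10 build, and the matrices hold the barcodes that Cell Ranger kept as cells. The library kit is given both as 3′ v3 and as GEM-X v4. Libraries held 9301 and 9522 cells. Genes were placed with GENCODE for GRCm38. Counts were summed over the members of a library, scaled to CPM and compared as log2 ratios, with exact Poisson intervals for levels, intervals of a ratio conditional on the summed count, and Clopper-Pearson intervals for shares, all at 95%. Detection was compared after thinning each cell to 2000 UMIs, which left out 0 control and 2 Dnmt1iECKO members. For a count of 0, the upper limit given is that of 3 counts. No column of per-sample values was left unused. Python 3.11.15, numpy 2.4.6, scipy 1.17.1, pandas 2.3.3, scanpy 1.11.5 and matplotlib 3.10.9 were used, and the calculation was tested on simulated data. Doublets were the highest Scrublet scores at 0.4% per 1000 cells and were kept, except in an alternative.

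The members and the 32 gene lists were chosen with earlier results of these data known. Named genes are those of the rule, *Dnmt1*, the genes with the highest ratio, lowest ratio and highest level of each list, and the 10 highest and 10 lowest ratios among genes with at least 100 UMIs, a UMI in at least 10% of members of the higher library, an interval without 0 and the same sign in members with 2 or 3 and with 4 or 5 rule genes. Other classes were regulatory T cells (*Cd4* and *Foxp3*), NK cells (2 of *Ncr1*, *Klrb1c* and *Klre1* and no T cell receptor gene) and TECs (*Cdh5* or *Pecam1*, without *Ptprc*, *Epcam*, *Cspg4* and *Myh11*). With 1 library per condition, no test was run. A result that the rule would name is not reported here.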

Additional observations from a re-analysis of the deposited data

Results flagged for a closer look

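The log2 ratio of Dnmt1iECKO over control was compared between activated and other CD8 T cells of the same libraries. For some of the named genes the ratio had the opposite sign in the other CD8 T cells, with intervals on opposite sides of 0. This difference between the classes was not tested. How often it occurs over all genes is not given here, so no excess can be read from it. Many named genes were picked by their ratio in these same members, and *Cd8a* and *Trac* belong to the rule. *Cd8a* was at −0.14 in activated and 0.50 in other CD8 T cells, *Trac* at −0.30 and 0.43, *Trbc2* at −0.073 and 0.20, and *Icos* at −0.18 and 0.40. *Tnf* was at −0.74 and 1.16 and *Mki67* at −0.43 and 0.84. In the other direction, *Xcl1* was at 1.06 and −0.78, *Irf8* at 0.97 and −1.49, *B2m* at 0.057 and −0.17, and *Igha*, an immunoglobulin gene whose UMIs lay largely in single cells, at 2.32 and −6.83.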

How the results depend on the processing

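With 1 library per condition nothing measures the spread between mice, and 100 control members limit every value of a low gene. No paired analysis was possible because each condition has 1 library. Of the ratios of single genes over all settings, 1284 stayed inside their main interval, 238 moved outside it and 25 changed sign with an interval that excluded 0 in the main setting. The share of all cells ranged from 1.69 to 2.04 on the log2 scale, the share of CD8 T cells from −0.29 to −0.08, and the medians of the cytotoxic and exhaustion lists from 0.16 to 0.41 and from −0.035 to 0.14. The cause of the changes below was not tested.

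The number of genes at least 2-fold higher and lower was 574 and 447 at a minimum of 20 UMIs, 136 and 132 at 100 UMIs, and 128 and 132 with the rule applied after thinning. It was 127 and 54 over members with little foreign RNA, and 165 were higher without the deepest 5% of members. Over those members the list medians were 0.032 for S phase, 0.082 for G2 and M phase, −0.36 for dissociation and −0.071 for glycolysis. With the rule after thinning they were 0.33 for memory, −0.00268 for S phase, 0.10 for G2 and M phase, −0.65 for dissociation and 0.059 for glycolysis. With at least 3 of the 5 genes they were 0.10 for lectin-like receptors, −0.035 for type I interferon, −0.071 for S phase, −0.34 for dissociation and −0.060 for glycolysis. The IFNγ median was 0.22 without doublets and 0.022 without the deepest 5%, where glycolysis was −0.30. Without members with *Cdh5*, *Cldn5* or *Egfl7*, the T cell receptor median was −0.12 and that of G2 and M phase −0.76. The S phase median was −0.058 with at least 2 CD8 UMIs, dissociation was −0.30 without cycling members, and glycolysis −0.18 as a mean over cells.

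The single genes that changed sign were, without doublets, *Ldb2* (0.37), *Plvap* (0.64) and *Iigp1* (0.38). Without members with *Cdh5*, *Cldn5* or *Egfl7* they were *Nkg7* (−0.054), *Cd8b1* (−0.13), *Cd3g* (−0.12), *Lpl* (1.29) and *Plvap* (1.18). With the rule after thinning they were *Tango6* (0.60), *Cxcr5* (0.66), *Ccr2* (−0.12), *Oasl2* (0.29) and *Tet2* (−0.037). Without cycling members they were *Dnmt1* (0.12), *Trbc2* (0.027), *Tnfrsf4* (0.19) and *B2m* (−0.00169). Over members with little foreign RNA they were *Cd3g* (−0.022), *Fabp5* (−0.53), *Sparc* (0.44), *Plvap* (0.12), *Cyb561a3* (0.58), *Tnfrsf4* (0.064), *Iigp1* (1.29) and *Id3* (0.64). In the last of these settings *Sparc* and *Plvap* rested on 3 and 1 control UMIs, with intervals that held 0.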
